A study of Mus musculus with 96 samples.

Results

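Across 96 polyA RNA-seq libraries of mouse C2C12 muscle cells, the genes followed here were 10 feedback inhibitors of mitogen-activated protein kinase (MAPK) signalling: the dual-specificity phosphatases Dusp1, Dusp4, Dusp5, Dusp6, Dusp8, Dusp10 and Dusp16 and the Sproutys Spry1, Spry2 and Spry4. They were chosen by gene name, and all 10 were found among the 54150 genes of the count table. C2C12 is a line of mouse myoblasts that leave the cell cycle in low serum and fuse into myotubes. The libraries fell into 35 conditions, 26 with 3 libraries and 9 with 2. The purpose of the design was to ask how cells in each state change their gene expression when respiration is blocked, and which biochemical lesion sets off the change.

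Media of the 10 hr treatments lacked pyruvate and uridine, and chloramphenicol was given with uridine. Proliferating myoblasts, kept in 10% dialyzed fetal bovine serum, made up 17 conditions. They carried a doxycycline-inducible transgene delivered by lentivirus, induced with 300 ng/ml doxycycline for 24 hr before and during treatment. The transgene was luciferase in control myoblasts, LbNOX (a bacterial NADH oxidase that makes water and recycles NADH to NAD+ in the cytosol), mitoLbNOX (the same enzyme sent to mitochondria) or NDI1 (a yeast NADH dehydrogenase that passes electrons around complex I). Control and LbNOX myoblasts received DMSO, piericidin (0.5 µM, complex I), antimycin (0.5 µM, complex III) or oligomycin (1 µM, ATP synthase) for 10 hr. The mitoLbNOX line received DMSO, piericidin or antimycin, and the NDI1 line DMSO or piericidin. In another experiment, control and LbNOX myoblasts received DMSO or chloramphenicol (20 µg/ml), which blocks mitochondrial translation, for 48 hr. Untransduced cells, without doxycycline, were grown to confluence in 20% dialyzed fetal bovine serum and moved to 2% dialyzed horse serum. They were treated as post-mitotic cells 24 hr after the switch (DMSO, piericidin or oligomycin) or as myotubes 4 days after it. Myotubes received DMSO, piericidin, antimycin, oligomycin, the uncoupler BAM15 (0.5 µM), oligomycin with BAM15 or with piericidin, or DMSO or oligomycin under 5% oxygen, with each agent given for 10 hr. Myotubes under 5% oxygen had been moved to it on the evening before and stayed in it, so their exposure to low oxygen was longer than 10 hr. A last set of myotubes was transduced 48 hr after the switch with adenovirus for GFP alone or for GFP with LbNOX (GFP myotubes and LbNOX myotubes), and received DMSO, piericidin or oligomycin. Each library came from a culture well, and nothing in the labels says that the wells of a condition were grown on separate occasions, so p-values measure the spread between these wells, which may be technical. Conditions with 2 libraries were those of the NDI1 line, of the 48 hr experiment and of the GFP myotubes.

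MAPK cascades relay signals from growth factor receptors (the ERK branch) and from cell stress (the JNK and p38 branches), and they switch on many of their own inhibitors. The dual-specificity phosphatases remove phosphate from both the threonine and the tyrosine of an active MAPK. Dusp1, a nuclear phosphatase, and Dusp8, Dusp10 and Dusp16 act mainly on JNK and p38. Dusp5 in the nucleus and Dusp6 in the cytoplasm are selective for ERK, while nuclear Dusp4 acts on ERK and JNK. Sproutys sit upstream, at the membrane, where they dampen the signal from receptor tyrosine kinases to Ras and ERK. In muscle, ERK activity is tied to myoblast growth and p38 activity to differentiation, and Spry1 is known from the return of muscle stem cells to quiescence.

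The stretches just before the start sites are shown for the 4 genes in which the letters of the cyclic AMP response element (CRE, TGACGTCA), a site known to bind CREB and ATF factors, or of its core were found. The choice follows the letters and not the responses: Dusp10, whose level rose with antimycin like theirs, holds neither. RefSeq start sites (GRCm38.p6) were at hand for 8 of the 10 genes, Dusp4 and Spry4 being the exceptions. Both strands of the 250 bases before each start were searched. The full CRE occurred in 2 of these 8 genes and in 1.55% of 32851 promoters. Its core TGACG, which the full CRE contains, occurred in 4 of the 8 (Dusp1, Dusp5, Dusp8 and Dusp16) and in 17.8% of promoters. The strings were chosen with the expression results known, and a match describes letters and not binding. Each run is read 5′ to 3′ on the gene's own strand and ends at the base before the start site or before the first exon base, with the CRE or its core in capitals on whichever strand it reads. GENCODE places 47 bases of the 200 before the RefSeq start of Dusp1 and 36 of the 120 before that of Dusp5 in exons of the genes themselves, and these bases were left out. The whole Dusp5 stretch lies in exons of an antisense gene, AC137853.2 (minus strand). Dusp8 is at chr7:142095285-142095404 (minus strand, inside a longer Dusp8 transcript but in none of its exons), Dusp1 at chr17:26508520-26508672 (minus strand), Dusp5 at chr19:53529025-53529108 (plus strand) and Dusp16 at chr6:134792629-134792748 (minus strand).
Dusp8: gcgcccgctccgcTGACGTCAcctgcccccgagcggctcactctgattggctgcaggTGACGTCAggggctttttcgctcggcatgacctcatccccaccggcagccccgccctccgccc
Dusp1: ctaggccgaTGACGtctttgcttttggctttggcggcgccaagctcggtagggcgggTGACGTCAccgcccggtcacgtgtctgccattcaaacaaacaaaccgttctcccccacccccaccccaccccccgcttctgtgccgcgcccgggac
Dusp5: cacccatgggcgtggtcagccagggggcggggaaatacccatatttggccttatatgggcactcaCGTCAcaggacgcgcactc
Dusp16: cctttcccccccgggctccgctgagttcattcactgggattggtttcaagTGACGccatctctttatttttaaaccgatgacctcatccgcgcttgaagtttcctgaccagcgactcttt
Dusp8 holds the full CRE at 2 places, from 107 to 100 and from 63 to 56 bases before the start. In Dusp1 the full CRE covers bases 143 to 136 before the start, with a further TGACG from 191 to 187. The windows of Dusp6, Dusp10, Spry1 and Spry2 held neither the full CRE nor TGACG. None of the 8 windows held the AP-1 string TGANTCA (6.75% of promoters), the CEBP-ATF string TGATGNAA (3.45%), the ETS core CCGGAA (12.03%) or the TATA box TATAAA (12.4%), and 6 of the 8 held the GC box GGGCGG (32.7%).

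In the GENCODE M21 annotation of the GRCm38 build, the genes lie on 10 different chromosomes. The phosphatases of JNK and p38 are Dusp1 (ENSMUSG00000024190, chr17:26505590-26562128, minus strand), Dusp8 (ENSMUSG00000037887, chr7:142079490-142095843, minus strand), Dusp10 (ENSMUSG00000039384, chr1:184013302-184075636, plus strand) and Dusp16 (ENSMUSG00000030203, chr6:134715468-134792625, minus strand). The others are Dusp4 (ENSMUSG00000031530, chr8:34807297-34819894, plus strand), Dusp5 (ENSMUSG00000034765, chr19:53529109-53542431, plus strand) and Dusp6 (ENSMUSG00000019960, chr10:99263231-99267489, plus strand). The Sproutys are Spry1 (ENSMUSG00000037211, chr3:37639947-37644598, plus strand), Spry2 (ENSMUSG00000022114, chr14:105891947-105896819, minus strand) and Spry4 (ENSMUSG00000024427, chr18:38586247-38601415, minus strand). Exons of Dusp1, Dusp5, Dusp8 and Spry1 overlap exons of 1 gene each on the opposite strand (Ergic1 in the case of Dusp1), and the library method does not mark strand, so reads of the shared bases could belong to either gene.

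Library totals ran from 6458295 to 15366745 assigned reads, with a median of 10336588.5. Levels are given as CPM (read counts relative to the library total) scaled over all 96 libraries by the trimmed mean of M values, and are compared within a gene only. Markers of the cell states were read on the same scale. Mki67, a proliferation marker, averaged 109 CPM in control myoblasts with DMSO, 18.9 in post-mitotic cells and 13.1 in myotubes. Of the 8 myoblast markers, 5 were lower and 3 higher in post-mitotic cells than in control myoblasts. Pax7 averaged 2.65, 12.5 and 5.17 CPM in the same order of states, Myf5 10.9, 17.5 and 9.04 CPM and Myod1 122, 202 and 159 CPM. Myog, the transcription factor of early differentiation, averaged 0.424, 1455 and 761 CPM in the same order. Summed over 12 myotube markers, the level was 18.6 to 24.3 CPM in control myoblasts with DMSO, where 1 of the 12 was at 0 in all 3 libraries. That sum was 13526 to 14013 CPM in post-mitotic cells and 15226 to 15643 CPM in myotubes. Because RNA was taken from whole wells, a lower level from fewer cells of a kind cannot be told apart from less RNA per cell.

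The level of 7 of the 10 genes was highest in control myoblasts under antimycin (Dusp1, Dusp4, Dusp5, Dusp8, Dusp10, Dusp16 and Spry4). From there the mean level of Dusp1 went from 187 CPM down to 18.1 CPM in GFP myotubes with oligomycin, a ratio of 10.4, and that of Dusp4 from 232 to 11.7 CPM in myotubes with oligomycin and piericidin, a ratio of 19.9. For Dusp5 the means ran from 20.3 to 0.354 CPM, the lowest in GFP myotubes with DMSO, and for Dusp16 from 59.4 to 8.76 CPM in the same lowest condition. Dusp8, the JNK and p38 phosphatase with 2 CREs shown above, ran from 36.7 to 2.11 CPM, lowest in control myoblasts after 48 hr of DMSO, and Dusp10 from 77.7 to 13.6 CPM, lowest in control myoblasts with oligomycin. Spry4 ran from 21.2 to 1.97 CPM in myotubes with piericidin. The other 3 genes had another order. Dusp6 was highest in control myoblasts with DMSO (62.8 CPM) and lowest in myotubes with oligomycin and piericidin (21.8 CPM), the narrowest span at 2.87-fold. Spry2 was highest in post-mitotic cells with piericidin (53.8 CPM) and lowest in control myoblasts with piericidin (10.4 CPM). Spry1 was highest in GFP myotubes with DMSO (15.7 CPM) and lowest in control myoblasts with antimycin (0.0706 CPM). Most neighbours in these orders could not be separated: of the 34 steps from a condition to the next lower one, the libraries overlapped in 29 (Dusp6 and Dusp10) to 33 (Dusp8). The antimycin libraries of control myoblasts overlapped with no library of the next condition for Dusp1, Dusp4, Dusp5, Dusp8, Dusp10 and Dusp16, but did for Spry4. How large a share of all genes was highest in that condition, or free of overlap there, was not counted.

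In control myoblasts all 4 phosphatases of JNK and p38 rose with antimycin and, by less, with piericidin, while Dusp1 and Dusp8 alone among them rose with oligomycin. Dusp1, the best known stress-induced member, stood at 24.5, 26.1 and 26.1 CPM in the DMSO libraries, 72.3, 83.9 and 80.0 CPM with piericidin, 189, 190.3 and 182 CPM with antimycin, and 49.8, 50.9 and 47.2 CPM with oligomycin. No 2 of these 4 groups overlapped. Against DMSO, Dusp1 rose 7.502-fold with antimycin (log2 fold change 2.91 ± 0.08 SE, adjusted p = 3.34e-23), 3.16-fold with piericidin (1.66 ± 0.08, adjusted p = 3.40e-17) and 1.95-fold with oligomycin (0.96 ± 0.08, adjusted p = 2.24e-11). Dusp8 started lower, at 3.13, 2.19 and 2.19 CPM with DMSO (24 to 34 counts), and reached 11.5, 12.2 and 11.3 CPM with piericidin, 36.7, 34.2 and 39.2 CPM with antimycin, and 5.34, 5.39 and 7.42 CPM with oligomycin. Here too every treated library lay above every DMSO library. The rise of Dusp8 was 15.1-fold with antimycin (3.91 ± 0.21, adjusted p = 1.96e-16), 4.81-fold with piericidin (2.27 ± 0.21, adjusted p = 8.44e-11) and 2.44-fold with oligomycin (1.29 ± 0.21, adjusted p = 8.52e-06).

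Dusp10 and Dusp16, which also act on JNK and p38, answered to the inhibitors of the respiratory chain and not measurably to oligomycin. With DMSO, Dusp10 stood at 14.6, 13.05 and 19.2 CPM, against 83.8, 73.9 and 75.3 CPM with antimycin and 27.8, 36.8 and 30.8 CPM with piericidin. It rose 5.11-fold with antimycin (2.35 ± 0.13, adjusted p = 4.15e-16) and 2.10-fold with piericidin (1.07 ± 0.13, adjusted p = 2.45e-08). Oligomycin libraries of Dusp10, at 14.8, 14.1 and 11.99 CPM, overlapped with DMSO (log2 fold change -0.17 ± 0.14). Dusp16 went from 14.2, 11.4 and 11.2 CPM with DMSO to 59.4, 63.1 and 55.6 CPM with antimycin and 26.1, 29.0 and 28.1 CPM with piericidin, with no overlap between these groups. It rose 4.98-fold with antimycin (2.32 ± 0.11, adjusted p = 8.04e-18) and 2.33-fold with piericidin (1.22 ± 0.11, adjusted p = 4.08e-11), while the oligomycin libraries at 13.01, 14.8 and 13.1 CPM overlapped with DMSO (0.18 ± 0.11).

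**Figure D1:**
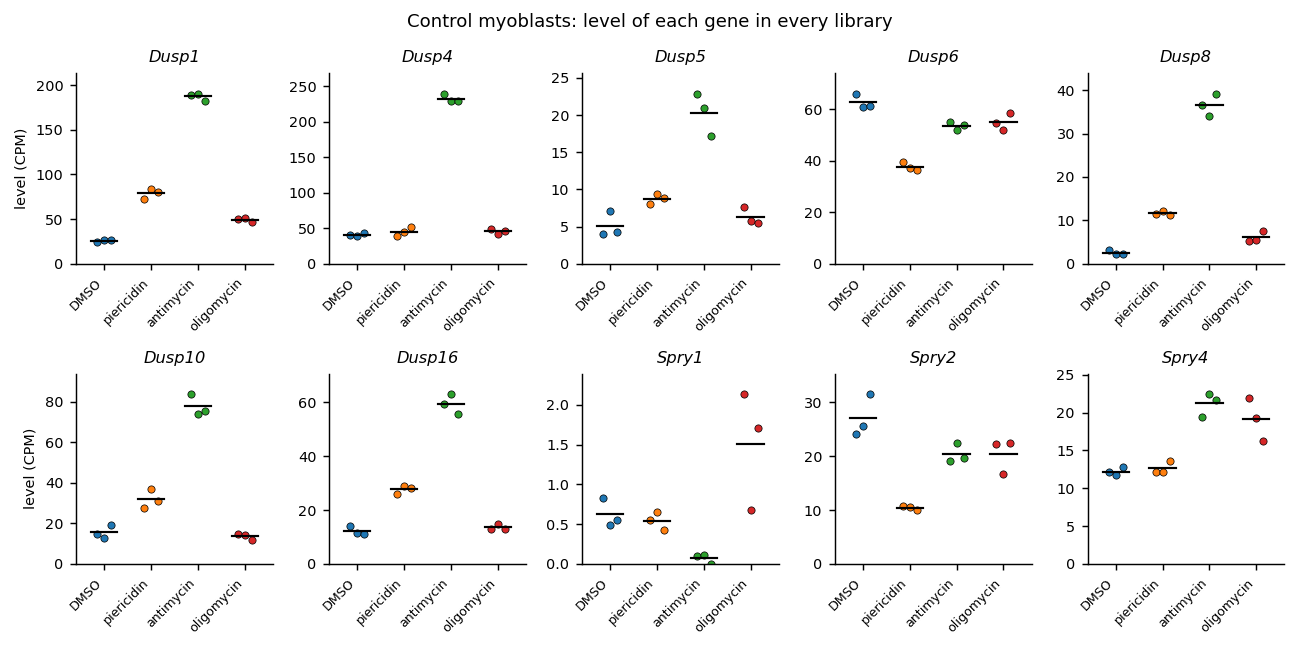
Level of each gene (vertical axis, CPM from 0, scale set per gene) in every library of control myoblasts with DMSO, piericidin, antimycin or oligomycin (points, 3 per condition, with the mean as a line). Antimycin libraries stand above all others for Dusp1, Dusp4, Dusp5, Dusp8, Dusp10 and Dusp16, while Spry2 is lowest with piericidin and Spry1 reaches at most 2.14 CPM in any library.

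The phosphatases of ERK did not move as 1 group. Dusp4, which also acts on JNK, stood at 39.9, 39.2 and 42.7 CPM with DMSO and at 239, 229 and 228 CPM with antimycin, a 5.86-fold rise (2.55 ± 0.08, adjusted p = 1.77e-21). With piericidin (39.2, 44.5 and 51.4 CPM) and oligomycin (48.8, 42.1 and 45.3 CPM) its change did not pass the test, at 0.19 ± 0.08 (adjusted p = 0.0540) and 0.18 ± 0.08 (adjusted p = 0.0789). Dusp5, the nuclear ERK phosphatase, had few reads and 1 DMSO library apart from the others (3.95, 7.12 and 4.30 CPM, from 43, 101 and 47 counts). It reached 22.9, 20.9 and 17.2 CPM with antimycin, a 4.02-fold rise (2.01 ± 0.23, adjusted p = 5.47e-09), and 8.07, 9.33 and 8.90 CPM with piericidin (0.80 ± 0.23, adjusted p = 0.00343). The piericidin call was lost when the libraries of replicate 3 were left out (0.66). Dusp6, the cytoplasmic ERK phosphatase and a common readout of ERK activity, went the other way. It fell from 66.1, 60.9 and 61.2 CPM with DMSO to 39.6, 37.2 and 36.4 CPM with piericidin, to 0.619 of the DMSO level (-0.69 ± 0.09, adjusted p = 6.08e-08). It was at 55.1, 52.1 and 53.8 CPM with antimycin (-0.19 ± 0.09, adjusted p = 0.0563) and 54.7, 52.1 and 58.5 CPM with oligomycin (-0.17 ± 0.09, adjusted p = 0.0977). These libraries all lay under the DMSO libraries, but neither change passed the test.

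Among the Sproutys, Spry2 fell and Spry4 rose. Spry2 stood at 24.1, 25.7 and 31.5 CPM with DMSO and at 10.7, 10.5 and 9.96 CPM with piericidin, or 0.395 of the DMSO level (-1.34 ± 0.17, adjusted p = 4.44e-08). Its smaller falls with antimycin (19.1, 22.5 and 19.7 CPM, -0.37 ± 0.16, adjusted p = 0.0402) and oligomycin (22.3, 16.7 and 22.5 CPM, -0.39 ± 0.16, adjusted p = 0.0375) were lost under 3 and 4 of the 9 alternative settings. Spry4 went from 12.1, 11.7 and 12.8 CPM with DMSO to 19.5, 22.5 and 21.7 CPM with antimycin (0.83 ± 0.18, adjusted p = 0.000140) and 21.9, 19.2 and 16.2 CPM with oligomycin (0.67 ± 0.18, adjusted p = 0.00206), both without overlap with DMSO, and stood at 12.2, 12.2 and 13.7 CPM with piericidin (0.09 ± 0.18). Spry1 was barely detected in control myoblasts, with 9, 7 and 6 counts with DMSO, 5, 6 and 4 with piericidin, 1, 1 and 0 with antimycin and 24, 8 and 15 with oligomycin, and did not pass the filter on low counts. Counted over the 9 genes tested, 5 rose and 2 fell with piericidin, 7 rose and 1 fell with antimycin, and 3 rose and 1 fell with oligomycin. The same comparisons called 61.7%, 63.2% and 50.8% of all 11981 genes tested. The median log2 fold change over the 9 was 0.80, 2.32 and 0.18, against -0.004, -0.005 and -0.015 over all genes. These 3 comparisons share their DMSO libraries.

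Measured directly against each other, antimycin gave higher levels than piericidin for all 9 genes tested, where 37.2% of all genes were called in either direction. The difference was largest for Dusp4 (2.36 ± 0.08, adjusted p = 2.31e-19) and Dusp8 (1.65 ± 0.18, adjusted p = 1.17e-08), and it took in Dusp6 (0.50 ± 0.09) and Spry2 (0.97 ± 0.17), which were lowest with piericidin. Against oligomycin, antimycin gave higher levels of the 4 JNK and p38 phosphatases, Dusp4 and Dusp5 (6 of 9, with 50% of all genes called), led by Dusp8 (2.63 ± 0.19) and Dusp10 (2.52 ± 0.13). All of these calls held under every one of the 9 alternatives. Against oligomycin, piericidin gave higher levels of Dusp1, Dusp8, Dusp10 and Dusp16 and lower levels of Dusp6, Spry2 and Spry4 (39.2% of all genes called), with Spry4 at -0.47 and not called without the libraries of replicate 1. Plate position moved with the treatment, since all 3 DMSO libraries of control myoblasts stood at the plate's edge and all 3 antimycin libraries inside it. With that position in the model, the antimycin response of Dusp1 was 2.93, that of Dusp8 3.89 and that of Dusp4 2.57, and all 8 calls remained. The position term rests on conditions with wells in both places. Within the DMSO and antimycin libraries of control myoblasts, position and treatment cannot be told apart. Dusp6, not called with antimycin in the fit reported, was called under 5 of the 9 alternatives.

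Markers of the cell state moved as well. Of 8 myoblast markers, 2 rose and 6 fell with piericidin and with antimycin, and 1 rose and 6 fell with oligomycin. Their summed level was 1401 to 1439 CPM with DMSO, 919 to 980 CPM with piericidin, 1050 to 1079 CPM with antimycin and 861 to 879 CPM with oligomycin. Summed myotube markers were at 18.6 to 24.3 CPM with DMSO, 27.4 to 33.2 CPM with piericidin, 82.7 to 95.8 CPM with antimycin and 22.8 to 31.7 CPM with oligomycin. Under antimycin 3 of the 12 myotube markers were at 0 in all 3 libraries, and the actin gene Acta1 had risen by 2.44 ± 0.14. Acta1 alone of the 12 passed the filter on low counts in myoblasts, and it averaged 16.2 CPM with DMSO. The part of these shifts in the responses above was not tested.

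Around these inhibitors, the rest of the MAPK pathway moved in both directions, as the lists of its genes show. These counts are to be read against the shares of all genes called, 63.2% with antimycin, 61.7% with piericidin and 50.8% with oligomycin, and nothing particular to a list was tested. Among ligands of receptor tyrosine kinases, 6 of 12 tested rose and 1 fell with antimycin, including Areg, an EGF receptor ligand (2.84 ± 0.14). Fgf21, a secreted stress hormone, rose with all 3 inhibitors (8.30 with piericidin, 7.94 with antimycin, 6.03 with oligomycin), and Hgf, the ligand of Met, fell with all 3 (-2.21, -0.81 and -1.67). Of 12 receptors, 3 rose and 2 fell with antimycin and 1 rose and 4 fell with piericidin. Epha2, an ephrin receptor, rose in both (1.92 ± 0.07 and 1.08 ± 0.07), and Pdgfrb, a PDGF receptor, fell in both (-0.40 ± 0.12 and -1.85 ± 0.13). In the ERK cascade 7 of 20 rose and 6 fell with antimycin, with the adaptor Frs2 at -1.05 ± 0.11. The JNK and p38 cascades had 2 of 19 higher and 5 lower with antimycin and 2 higher and 9 lower with piericidin. Map2k7, which phosphorylates JNK, was the most raised of them in both (1.26 ± 0.20 and 1.10 ± 0.20).

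Of other inhibitors of the pathway, 7 of 15 rose and 2 fell with antimycin (median log2 fold change 0.13), and 7 rose and 4 fell with piericidin (median 0.20). Dusp3, an atypical phosphatase of ERK and JNK, led them in both (1.97 ± 0.06 and 1.46 ± 0.06). Spred1, a membrane inhibitor of Ras signalling related to the Sproutys, fell in both (-0.46 ± 0.14 and -0.65 ± 0.14). Target genes of ERK signalling went both ways, with 10 of 21 higher and 9 lower under antimycin, and 11 higher and 9 lower under piericidin. Phlda1 was among the raised ones (3.47 ± 0.13 and 1.99 ± 0.12), while Egr1, an immediate early transcription factor, fell (-2.08 ± 0.11 and -3.0 ± 0.12). With oligomycin 8 of the 21 target genes rose and 10 fell, 5 of 12 ligands rose and 2 fell, and 2 of 20 genes of the ERK cascade rose and 4 fell.

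**Figure D2:**
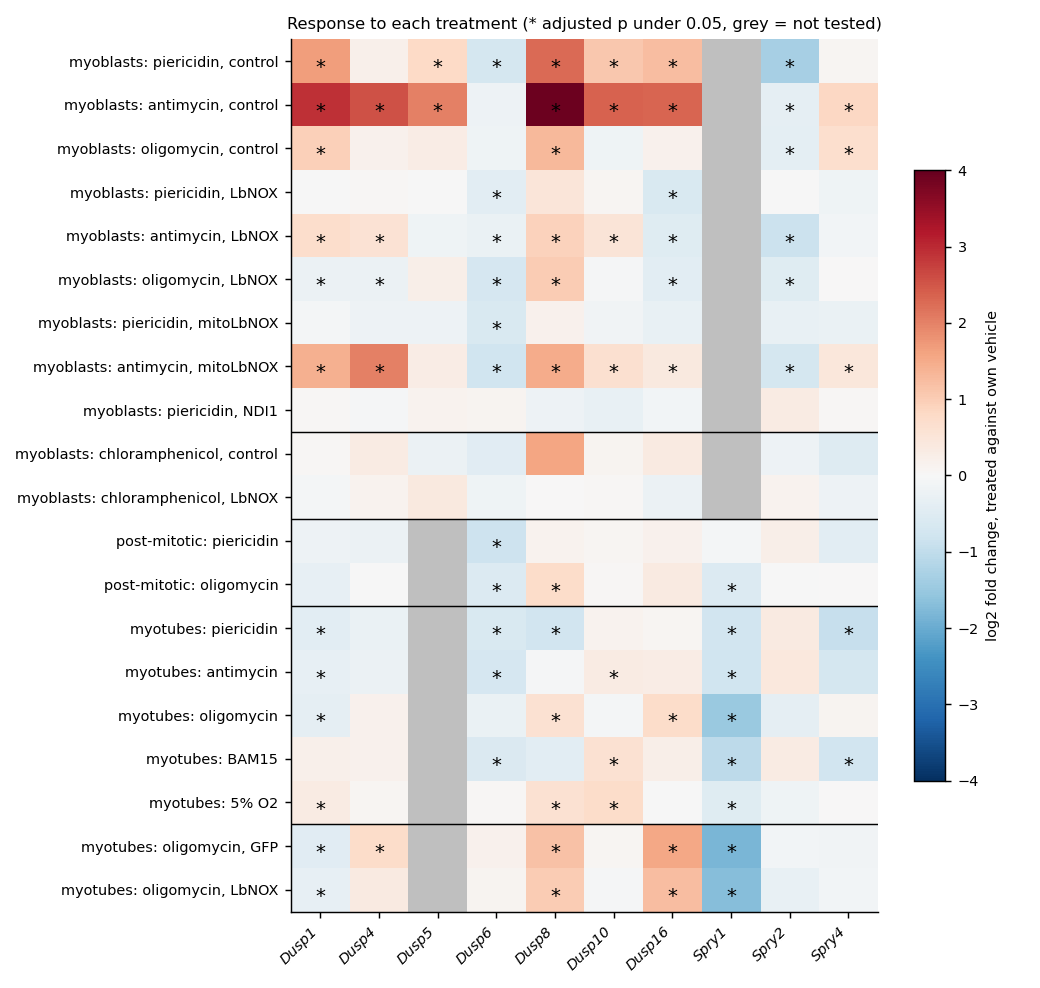
Log2 fold change of each gene (columns) in 20 treatments against the vehicle of the same cells (rows; colour scale from -4, blue, to 4, red; an asterisk marks an adjusted p under the threshold, and grey a gene not tested in that fit). Red is concentrated in the row of control myoblasts with antimycin, where Dusp8 reaches 3.91, while Spry1 is blue in each myotube row.

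With DMSO alone, 3, 2 and 4 of the 9 genes differed from control myoblasts in the LbNOX, mitoLbNOX and NDI1 lines. In LbNOX myoblasts Dusp1 was higher (0.36 ± 0.08, adjusted p = 0.00815) and Dusp4 (-0.47 ± 0.09, adjusted p = 0.000679) and Dusp6 (-0.32 ± 0.09, adjusted p = 0.0369) lower than in control myoblasts, where 2.68% of all genes were called. Both Dusp4 and Dusp6 were also lower in mitoLbNOX myoblasts (-0.41 ± 0.09 and -0.43 ± 0.09; 1.77% of all genes called) and in NDI1 myoblasts (-0.53 ± 0.10 and -0.57 ± 0.10; 4.61% called). In NDI1 myoblasts Dusp1 was higher (0.31 ± 0.09) and Spry4 lower (-0.81 ± 0.21, adjusted p = 0.0180) as well. Dusp4 libraries were at 30.1, 31.1 and 26.5 CPM in the LbNOX line, 29.3, 30.4 and 31.7 CPM in the mitoLbNOX line and 29.6 and 26.7 CPM in the NDI1 line, all under the control range of 39.2 to 42.7 CPM. The 3 comparisons share the same control libraries, and none of their 9 calls held under every alternative.

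With LbNOX in the cytosol, the antimycin response of the JNK and p38 phosphatases was smaller than in control myoblasts. Dusp1 went from 32.4, 34.5 and 31.5 CPM with DMSO to 53.5, 50.7 and 50.8 CPM with antimycin (0.71 ± 0.08), a smaller response than in control myoblasts (difference of -2.197 ± 0.11 on the log2 scale, adjusted p = 2.81e-16). Dusp8 went from 2.73, 3.09 and 2.33 CPM to 4.45, 5.43 and 5.07 CPM (0.91 ± 0.21), a response lower than in control myoblasts (difference of -2.999 ± 0.30, adjusted p = 8.40e-10). Neither of these genes overlapped between DMSO and antimycin in the LbNOX line. Dusp16 turned over: it was at 13.04, 14.0 and 14.0 CPM with DMSO and 9.79, 9.08 and 9.44 CPM with antimycin, a fall (-0.48 ± 0.11, adjusted p = 0.000930) where control myoblasts showed a rise (difference -2.80 ± 0.16, adjusted p = 2.16e-15). Dusp10 rose by 0.51 ± 0.13 (difference -1.84 ± 0.18; the rise was 0.46 and not called without the libraries of replicate 1), Dusp4 by 0.57 ± 0.09 (difference -1.98 ± 0.12), and Dusp5, at 4.00, 3.30 and 3.75 CPM with antimycin, was at -0.17 ± 0.25 (difference -2.18 ± 0.33).

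Spry4 lost its rise in the LbNOX line too, with 7.67, 10.1 and 7.63 CPM with DMSO and 7.83, 8.85 and 6.09 CPM with antimycin (difference from control -0.95 ± 0.26, adjusted p = 0.00286), a call that was lost without the libraries of replicate 3 (-0.89). Spry2 fell in LbNOX myoblasts with antimycin (-0.85 ± 0.17), and its response did not differ by the test from that of control myoblasts (-0.48 ± 0.23, adjusted p = 0.0822). Dusp6 fell (-0.27 ± 0.09, not called without the libraries of replicate 3, at -0.14), and its difference from control was -0.08 ± 0.12. In all, 4 of the 9 genes rose and 3 fell with antimycin in LbNOX myoblasts (46.1% of all genes called), and the response of 7 was lower than in control myoblasts, of none higher (51.5% of all genes called). Myoblast markers moved with antimycin here too, 0 of 8 rising and 6 falling, with a sum of 1395 to 1413 CPM with DMSO and 678 to 729 CPM with antimycin, against 1050 to 1079 CPM in control myoblasts with antimycin. Summed myotube markers, of which Acta1 alone passed the filter, were at 35.3 to 39.8 CPM with antimycin, against 82.7 to 95.8 CPM in control myoblasts. The part of these shifts was not tested.

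**Figure D3:**
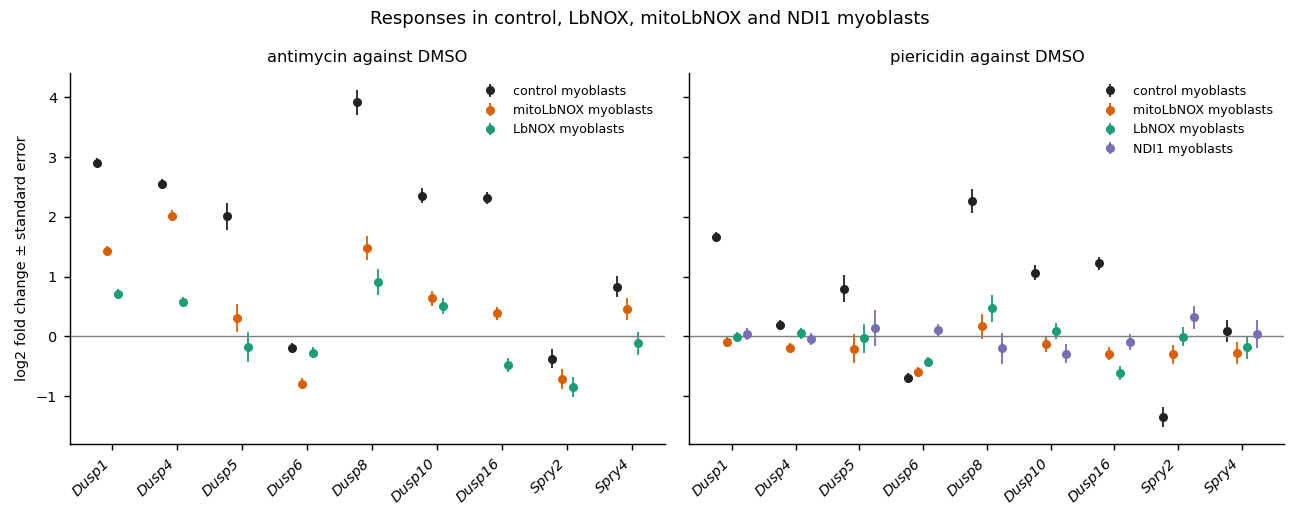
Log2 fold change against DMSO of the same line, with its standard error (vertical axis), for 9 genes under antimycin (left) and piericidin (right) in control, mitoLbNOX, LbNOX and, for piericidin, NDI1 myoblasts. Under antimycin the LbNOX points of the 4 JNK and p38 phosphatases and Dusp5 lie under 1, and under piericidin those of the other 3 lines lie between -0.61 and 0.47.

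The same enzyme sent to mitochondria left part of the antimycin response in place, and it was not tested against LbNOX directly. With mitoLbNOX, 6 genes rose and 2 fell with antimycin (47.7% of all genes called). The rise of Spry4 (0.46 ± 0.18) was lost under 4 of 9 alternatives, at 0.23 without the libraries of replicate 1. The fall of Spry2 (-0.71 ± 0.16) was lost without those libraries as well (-0.57). Dusp4 kept most of its rise, from 29.3, 30.4 and 31.7 CPM to 126, 118 and 123 CPM (2.02 ± 0.08, lower than in control myoblasts with a difference of -0.53 ± 0.12, adjusted p = 0.000709). Dusp1 rose by 1.44 ± 0.08, Dusp8 by 1.48 ± 0.20, Dusp10 by 0.64 ± 0.13 and Dusp16 by 0.39 ± 0.11 (0.25 and not called without the libraries of replicate 1), each less than in control myoblasts (differences -1.47 ± 0.11, -2.43 ± 0.29, -1.72 ± 0.18 and -1.93 ± 0.15). Dusp6 fell from 44.2, 47.9 and 47.4 CPM to 28.2, 26.0 and 25.8 CPM (-0.79 ± 0.09), further than in control myoblasts (difference -0.60 ± 0.12, adjusted p = 0.000416, and -0.53 and not called without the libraries of replicate 2). The response of 7 of the 9 genes was lower with mitoLbNOX than in control myoblasts (31.7% of all genes called). Of the 8 myoblast markers 1 rose and 6 fell with antimycin in this line, from a sum of 1352 to 1400.3 CPM to one of 912 to 930.1 CPM. Summed myotube markers, of which Acta1 alone passed the filter, went from 15.8 to 20.8 CPM to 62.1 to 67.7 CPM. The part of both marker shifts was not tested.

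Piericidin left little trace on these genes in the LbNOX, mitoLbNOX and NDI1 lines. Called changes were the falls of Dusp6 (-0.43 ± 0.09) and Dusp16 (-0.61 ± 0.12) with LbNOX (8.87% of all genes called) and of Dusp6 (-0.60 ± 0.09) with mitoLbNOX (11.2% called). Without the libraries of replicate 2 the LbNOX values were -0.45 for Dusp6 and -0.51 for Dusp16, and neither was called, while the fall with mitoLbNOX held throughout. With NDI1, 0 of the 9 genes passed edgeR's test, 0 had an unadjusted p under 0.05, and 0 were called by DESeq2, in a comparison that called 0.00835% of all genes. There Dusp1 was at 31.3 and 32.2 CPM with DMSO and 34.1 and 31.3 CPM with piericidin, and Dusp8 at 3.02 and 4.14 CPM against 3.45 and 2.73 CPM. Tested against the response of control myoblasts, that of Dusp1 was lower, with differences of -1.67 ± 0.11 with LbNOX, -1.75 ± 0.11 with mitoLbNOX and -1.62 ± 0.13 with NDI1, and so was that of Dusp8 at -1.79 ± 0.30, -2.10 ± 0.30 and -2.46 ± 0.34. Spry2, which fell with piericidin in control myoblasts as Dusp6 did, had a higher response in the 3 lines by 1.33 ± 0.23, 1.05 ± 0.23 and 1.66 ± 0.26. For Dusp6 the response differed from control in the NDI1 line (0.80 ± 0.14, adjusted p = 2.00e-05) and not by the test in the LbNOX (0.26 ± 0.12) or mitoLbNOX line (0.10 ± 0.12). The piericidin response differed for 6, 7 and 6 of the 9 genes in the 3 lines, where 44.3%, 42.8% and 42.7% of all genes did. These counts include Dusp5 with LbNOX (-0.83 ± 0.34, lost under 4 of 9 alternatives and at -0.51 and -0.54 without the libraries of replicate 1 or 3) and Dusp4 (-0.38 ± 0.12) and Dusp5 (-1.004 ± 0.33) with mitoLbNOX, each lost under 2. Myoblast markers fell with piericidin for 4 of 8 with LbNOX, 4 with mitoLbNOX and 0 with NDI1, and their part was not tested. All of these differences use the same control libraries.

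Oligomycin in LbNOX myoblasts gave 1 rise and 5 falls (35.2% of all genes called). Dusp8 still rose, from 2.73, 3.09 and 2.33 CPM to 6.14, 5.55 and 4.48 CPM (1.02 ± 0.21), and its response was not separable from that of control myoblasts (difference -0.27 ± 0.30). Dusp1 stood at 31.0, 22.5 and 27.9 CPM (-0.23 ± 0.08, a call lost under 4 of 9 alternatives, at -0.12 without the libraries of replicate 2), and its response was lower than in control myoblasts (difference of -1.19 ± 0.12, adjusted p = 2.37e-08). Dusp4, Dusp6 and Dusp16 also responded lower (-0.43 ± 0.12, -0.51 ± 0.12 and -0.60 ± 0.16; 4 of 9 genes in all, with 7.98% of all genes called), and of these 4 calls only that of Dusp1 held under all alternatives. Among the 5 falls within the line, Dusp4 and Dusp16 were each lost under 4 of 9 alternatives and Spry2 under 2. Of the 8 myoblast markers 0 rose and 5 fell, from a sum of 1395 to 1413 CPM to one of 892 to 966 CPM, and their part was not tested.

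After 48 hr of chloramphenicol, 0 of the 9 genes tested passed edgeR's test in control myoblasts (8.45% of all genes called), 4 having an unadjusted p under 0.05 and 0 being called by DESeq2. Dusp8 had the largest change, from 1.32 and 2.90 CPM (15 and 47 counts) with DMSO to 4.69 and 7.79 CPM (1.57 ± 0.45, adjusted p = 0.0688, called with a replicate block, with well position or with no filter), and Dusp6 went from 42.4 and 42.7 CPM to 32.6 and 27.3 CPM (-0.46 ± 0.12, adjusted p = 0.0543). In LbNOX myoblasts 0 of 9 were called (0.931% of all genes called, 0 with an unadjusted p under 0.05), and the difference between the lines gave 0 calls (0.530% of all genes, 2 with an unadjusted p under 0.05), with 0 called by DESeq2 in both. Each condition here had 2 libraries.

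Levels of these genes also differed between the cell states with no inhibitor present. From control myoblasts to post-mitotic cells, both with DMSO, 5 of the 10 genes rose and 4 fell, while 63.6% of 12766 genes were called. These cells differ also in their transgene, doxycycline, serum and density, which cannot be told apart from the change of state. Spry1 went from 0.827, 0.494 and 0.548 CPM (9, 7 and 6 counts) to 9.23, 11.3 and 8.55 CPM, and to 16.6, 14.8 and 14.99 CPM in myotubes. It entered the test through the differentiated cells, where it is high. Its rise was 15.3-fold into post-mitotic cells (3.94 ± 0.28, adjusted p = 4.94e-13) and 1.61-fold from there to myotubes (0.69 ± 0.20, adjusted p = 0.00888, and 0.59 and 0.58, not called, without the libraries of replicate 1 or 3). Spry2 rose from 24.1, 25.7 and 31.5 CPM to 48.7, 44.0 and 43.1 CPM (0.73 ± 0.13) and fell back to 25.8, 29.9 and 35.2 CPM in myotubes (-0.57 ± 0.13). Spry4 fell from 12.1, 11.7 and 12.8 CPM to 5.03, 5.23 and 4.62 CPM (-1.31 ± 0.23) and was at 3.28, 4.70 and 3.36 CPM in myotubes (-0.37 ± 0.26). Each of the Sproutys thus had its own course.

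**Figure D4:**
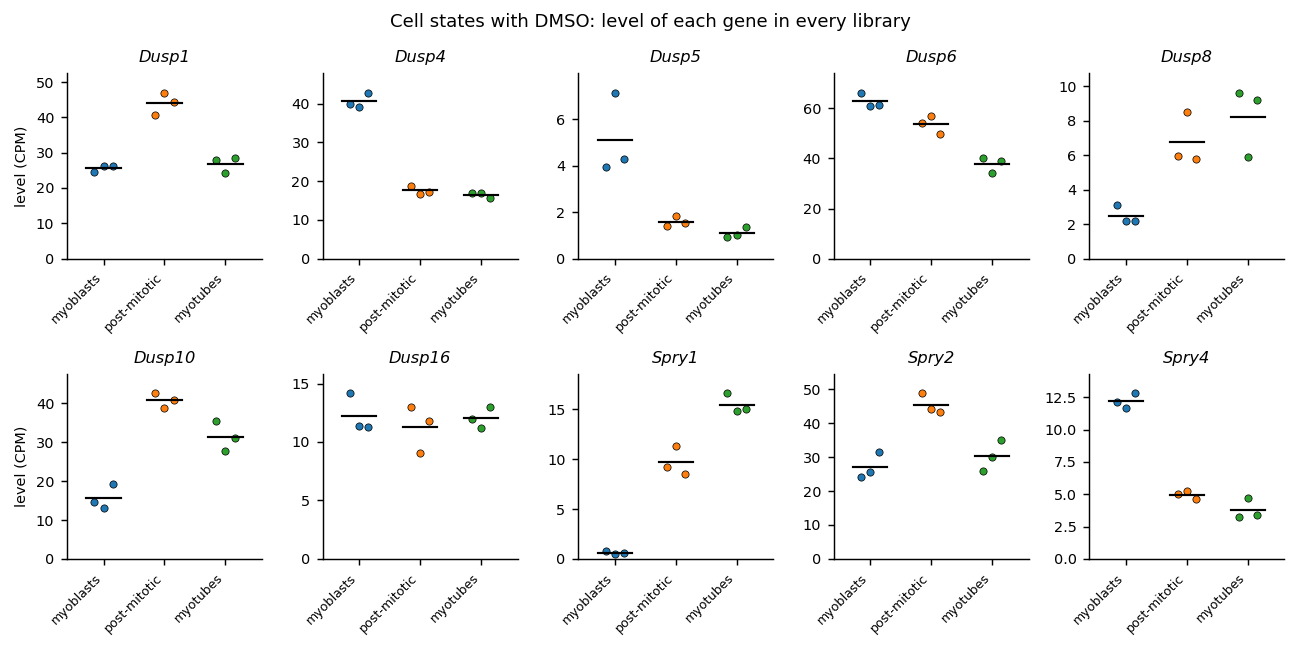
Level of each gene (vertical axis, CPM from 0, scale set per gene) in the DMSO libraries of control myoblasts, post-mitotic cells and myotubes (points, 3 per state, with the mean as a line). Spry1 and Dusp10 are lowest in myoblasts, Dusp4, Dusp5 and Spry4 highest there, and Spry2 and Dusp1 peak in post-mitotic cells.

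Among the phosphatases, Dusp1, Dusp8 and Dusp10 were higher and Dusp4, Dusp5 and Dusp6 lower in post-mitotic cells than in control myoblasts. Dusp10 went from 14.6, 13.05 and 19.2 CPM to 42.6, 38.9 and 40.8 CPM (1.38 ± 0.11), Dusp8 from 3.13, 2.19 and 2.19 CPM to 5.97, 8.53 and 5.78 CPM (1.42 ± 0.23), and Dusp1 from 24.5, 26.1 and 26.1 CPM to 40.7, 46.9 and 44.4 CPM (0.77 ± 0.13). Dusp16 did not change by the test (-0.13 ± 0.14). Dusp4 fell to 18.8, 16.7 and 17.2 CPM (-1.22 ± 0.09), Dusp5 to 1.40, 1.83 and 1.54 CPM (-1.70 ± 0.28) and Dusp6 to 54.3, 56.8 and 49.9 CPM (-0.24 ± 0.09, a call lost under 5 of 9 alternatives). Dusp5 had 15, 20 and 20 counts in post-mitotic cells and entered the test through the myoblasts, where it is high. From post-mitotic cells to myotubes 1 gene rose and 4 fell (35.6% of all genes called): Dusp1 came down to 28, 24.3 and 28.4 CPM (-0.70 ± 0.13), Dusp6 to 40.0, 34.2 and 38.8 CPM (-0.50 ± 0.09) and Dusp10 to 35.4, 27.7 and 31.2 CPM (-0.36 ± 0.11). All 3 post-mitotic libraries stood at the plate's edge and all 3 of myotubes inside it, and with well position in the model the change of Dusp10 was -0.28 and not called.

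In myotubes Dusp10 was the 1 phosphatase that rose with antimycin (36.6, 40.2 and 39.1 CPM against 35.4, 27.7 and 31.2 CPM with DMSO, 0.32 ± 0.09, lost under 4 of 9 alternatives). Dusp1 fell slightly, from 28, 24.3 and 28.4 CPM with DMSO to 20.8, 20.3 and 22.2 CPM with antimycin (-0.34 ± 0.09, adjusted p = 0.0158), 19.2, 19.9 and 20.7 CPM with piericidin (-0.41 ± 0.09, adjusted p = 0.00572) and 20.3, 22.8 and 18.0 CPM with oligomycin (-0.36 ± 0.09, adjusted p = 0.00421). None of these 3 calls held without the libraries of replicate 1 (-0.31, -0.39 and -0.33) or of replicate 3 (-0.34, -0.39 and -0.22). Dusp8 was at 9.61, 5.89 and 9.22 CPM with DMSO and 6.17, 9.15 and 8.13 CPM with antimycin (-0.06 ± 0.19), and Dusp4 at 16.8, 16.9 and 15.8 CPM against 14.8, 13.7 and 13.2 CPM (-0.23 ± 0.11, adjusted p = 0.174). Myotubes and control myoblasts differ also in transgene, doxycycline, serum and density, which cannot be told apart from the state. Measured as a difference of responses, myotubes minus control myoblasts, antimycin gave -3.92 ± 0.30 for Dusp8, -3.20 ± 0.19 for Dusp1, -2.73 ± 0.13 for Dusp4, -2.06 ± 0.43 for Dusp5, -1.99 ± 0.16 for Dusp10 and -1.96 ± 0.20 for Dusp16, all held under every alternative. Spry4 (-1.47 ± 0.34) and Dusp6 (-0.43 ± 0.14, or -0.28 and not called without the libraries of replicate 3) were also lower, and Spry2 (0.84 ± 0.19) and Spry1 (2.10 ± 0.70) higher. All 10 were thus called, where 47.9% of all genes were, but Spry1 and Dusp5 were tested only through the state where each is high. Dusp5 entered this test through the myoblasts, and its myotube libraries held 9, 11 and 14 counts with DMSO and 18, 11 and 9 with antimycin. The value of Spry1 rests on 1, 1 and 0 counts in antimycin myoblasts, and its call was lost under 5 of 9 alternatives.

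The same other differences between myotubes and control myoblasts apply to piericidin and oligomycin. Piericidin responses differed between these cells for 7 of the 10 genes (46.5% of all genes called), 6 lower and 1 higher in myotubes, led by Dusp8 (-2.995 ± 0.31), Dusp1 (-2.03 ± 0.20) and, in the other direction, Spry2 (1.73 ± 0.20), and 5 of the 7 calls held under every alternative. For oligomycin 3 of 10 differed (29.0% of all genes called): Spry1 (-2.78 ± 0.40) and Dusp1 (-1.32 ± 0.19) were lower in myotubes and Dusp16 (0.56 ± 0.20, adjusted p = 0.0375, lost under 4 of 9 alternatives) higher. Spry1 entered this test through the differentiated cells, and its myoblast libraries held 9, 7 and 6 counts with DMSO and 24, 8 and 15 with oligomycin.

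Within myotubes, Spry1 was lower in each of the 5 single treatments than with DMSO. From 16.6, 14.8 and 14.99 CPM with DMSO it went to 5.83, 4.73 and 5.45 CPM with oligomycin (-1.50 ± 0.16, adjusted p = 4.46e-08) and 5.95, 7.54 and 8.03 CPM with BAM15 (-1.05 ± 0.15, adjusted p = 1.50e-05). Antimycin gave 10.1, 8.43 and 7.69 CPM (-0.80 ± 0.15), piericidin 10.5, 6.94 and 9.91 CPM (-0.75 ± 0.15) and 5% oxygen 10.8, 9.60 and 11.3 CPM (-0.49 ± 0.15). No treated library reached the DMSO range. The calls with oligomycin, BAM15 and antimycin held under every alternative, that with piericidin was lost without the libraries of replicate 2 (-0.61), and that with 5% oxygen was lost under 4 alternatives.

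**Figure D5:**
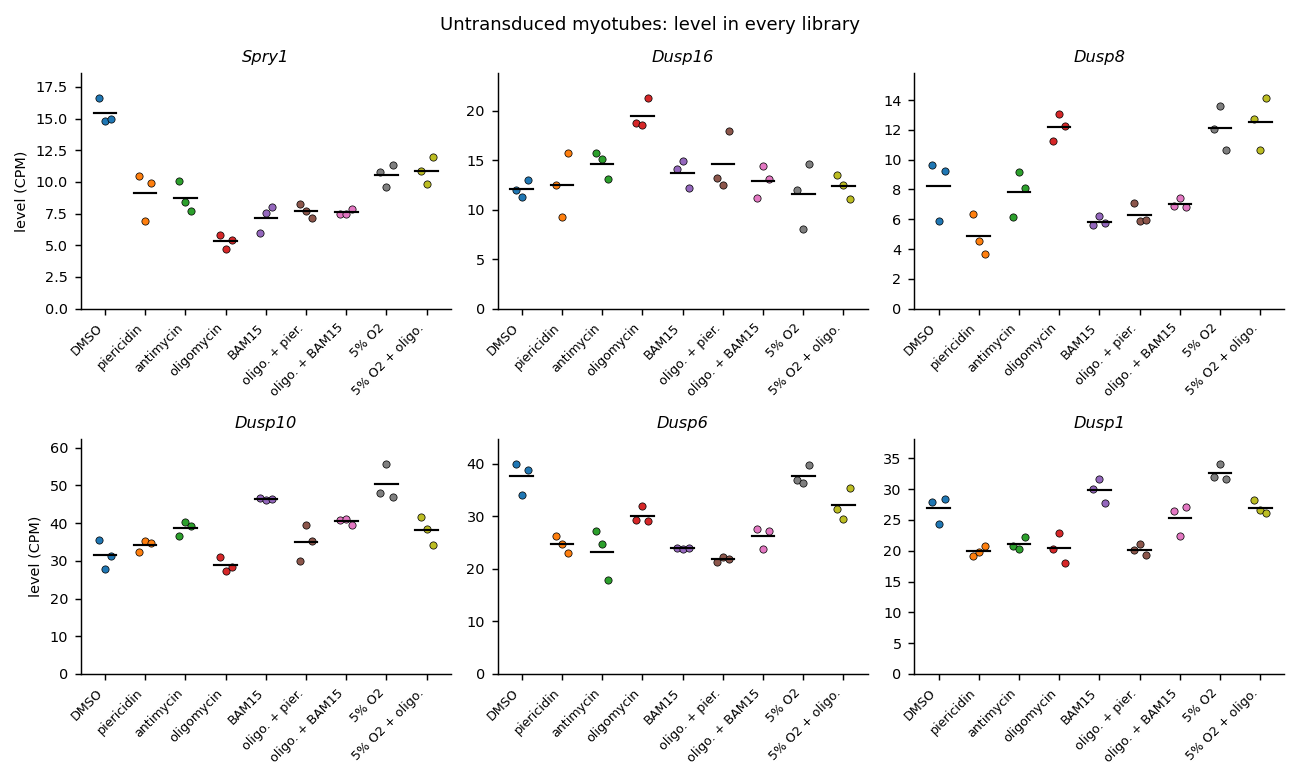
Level of 6 of the genes (vertical axis, CPM from 0, scale set per gene) in every library of untransduced myotubes, for 9 conditions (points, 3 per condition, with the mean as a line). Spry1 is highest with DMSO and lowest with oligomycin alone, where Dusp16 is at its highest.

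Oligomycin raised Dusp16 and Dusp8 in myotubes. Dusp16 went from 11.9, 11.2 and 12.97 CPM to 18.7, 18.5 and 21.2 CPM (0.73 ± 0.18, adjusted p = 0.00286) and Dusp8 from 9.61, 5.89 and 9.22 CPM to 11.3, 13.04 and 12.2 CPM (0.61 ± 0.19, adjusted p = 0.0143), both without overlap. The call of Dusp16 was lost without the libraries of replicate 1 (0.75) and that of Dusp8 without those of replicate 2 (0.35). In all, 2 genes rose and 2 fell with oligomycin (33.3% of 12491 genes called), 0 rose and 5 fell with piericidin (8.99%), and 1 rose and 3 fell with antimycin (12.9%). Of the 5 falls with piericidin, that of Dusp6 alone held under every alternative, while those of Dusp8 (-0.77 ± 0.21) and Spry4 (-0.93 ± 0.29) were lost under 4 and 8 of 9 (Dusp8 at -0.49 without the libraries of replicate 3). Dusp5, at 6 to 29 counts per library in myotubes without virus, was not tested there.

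Dusp6, by contrast, was lower with piericidin (26.3, 24.7 and 23.0 CPM, -0.60 ± 0.11), antimycin (27.1, 24.7 and 17.9 CPM, -0.67 ± 0.11) and BAM15 (24.1, 23.8 and 24.0 CPM, -0.59 ± 0.11) than with DMSO (40.0, 34.2 and 38.8 CPM). These groups did not overlap with DMSO and the 3 calls held under every alternative. With oligomycin Dusp6 was at 29.3, 32.0 and 29.1 CPM, a change that missed the threshold (-0.28 ± 0.11, adjusted p = 0.0540), and with 5% oxygen at 36.9, 36.3 and 39.9 CPM (0.05 ± 0.11). BAM15 raised Dusp10 to 46.7, 46.0 and 46.4 CPM from 35.4, 27.7 and 31.2 CPM (0.62 ± 0.09, adjusted p = 1.15e-05) and lowered Spry4, at 18 to 29 counts (-0.77 ± 0.28, adjusted p = 0.0491). The Spry4 call was lost under 8 of 9 alternatives, at -0.36 without the libraries of replicate 2. In all, 1 gene was higher and 3 lower with BAM15 (25.4% of all genes called). With BAM15 1 of the 8 myoblast markers rose and 3 fell, to a sum of 237 to 249.5 CPM. Under 5% oxygen Dusp10 was at 48.0, 55.7 and 47.0 CPM (0.73 ± 0.09, adjusted p = 7.64e-07), and Dusp1 (0.33 ± 0.09) and Dusp8 (0.60 ± 0.19) rose too (3 higher and 1 lower, 22.1% called). The call of Dusp10 alone held throughout, and Dusp8 was at 0.32 without the libraries of replicate 2. Of the 8 myoblast markers 6 fell and 0 rose under 5% oxygen, their sum being 183 to 193 CPM against 284 to 312 CPM with DMSO, and the part of this shift in these changes was not tested.

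Oligomycin was also given to myotubes together with BAM15 or piericidin, or after the overnight exposure to 5% oxygen. Relative to oligomycin alone, Spry1 was higher with BAM15 (7.45, 7.49 and 7.88 CPM, 0.54 ± 0.16), with piericidin (8.24, 7.71 and 7.19 CPM, 0.53 ± 0.16) and under 5% oxygen (10.9, 9.87 and 11.9 CPM, 1.05 ± 0.16, adjusted p = 1.28e-05), and the last of these calls held under every alternative while the others were each lost under 5. Dusp8 came down to 6.90, 7.40 and 6.81 CPM with BAM15 (-0.77 ± 0.19) and 7.11, 5.88 and 5.96 CPM with piericidin (-0.95 ± 0.19). Under 5% oxygen it was at 12.7, 10.7 and 14.1 CPM (0.05 ± 0.18). With DMSO under 5% oxygen, Dusp8 was already at 12.1, 13.6 and 10.6 CPM and Spry1 at 10.8, 9.60 and 11.3 CPM. Oligomycin against DMSO within 5% oxygen was not tested. Dusp16 fell with BAM15 (-0.57 ± 0.18) and 5% oxygen (-0.64 ± 0.18), neither called without the libraries of replicate 1 (-0.51 and -0.74), and stood at -0.42 ± 0.18 with piericidin (adjusted p = 0.0993). Dusp10 was higher in all 3 combinations (0.52 ± 0.09 with BAM15, 0.27 ± 0.09 with piericidin and 0.42 ± 0.09 under 5% oxygen). The call with piericidin was lost under 5 alternatives, at 0.14 without the libraries of replicate 2. Under 5% oxygen, Dusp10 averaged 38.1 CPM with oligomycin and 50.2 CPM with DMSO. BAM15 on top of oligomycin gave 4 rises and 3 falls (26.1% of all genes called), piericidin 3 and 3 (20.9%) and 5% oxygen 3 and 2 (33.3%). Calls held under every alternative were those of Dusp8 and Dusp10 with BAM15, Dusp4 and Dusp8 with piericidin, and Dusp10 and Spry1 under 5% oxygen. Dusp4 with piericidin lay between -0.69 and -0.57 over the alternatives. BAM15 added to oligomycin left 0 of the 8 myoblast markers higher and 3 lower (sum of 230.1 to 247 CPM), and piericidin 1 higher and 2 lower (289 to 300.4 CPM). Under 5% oxygen with oligomycin, 2 of the 8 myoblast markers were higher and 6 lower than with oligomycin alone (sums of 220.1 to 229.5 and 272 to 301 CPM), and their part was not tested. These comparisons share the oligomycin libraries.

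In adenoviral myotubes oligomycin moved Spry1, Dusp16 and Dusp8 in the same directions. With GFP, Spry1 went from 15.2 and 16.2 CPM to 4.04 and 4.84 CPM (-1.82 ± 0.20, adjusted p = 1.04e-05), Dusp16 from 8.59 and 8.93 CPM to 22.5 and 29.4 CPM (1.56 ± 0.19, adjusted p = 2.19e-05) and Dusp8 from 4.67 and 6.42 CPM to 13.4 and 11.7 CPM (1.17 ± 0.21, adjusted p = 0.000839, and 0.87 and not called without the libraries of replicate 1). Dusp4 rose as well (0.74 ± 0.17, or 0.60 and not called without the libraries of replicate 2) and Dusp1 fell (-0.47 ± 0.14, lost under 5 of 9 alternatives), so 3 rose and 2 fell where 25.9% of 12397 genes were called. With LbNOX, Spry1 fell from 13.4, 15.6 and 14.0 CPM to 4.42, 3.72 and 5.03 CPM (-1.69 ± 0.17), Dusp16 rose from 8.68, 10.1 and 12.9 CPM to 26.7, 25.2 and 22.6 CPM (1.23 ± 0.15) and Dusp8 from 6.48, 6.03 and 6.24 CPM to 14.1, 11.7 and 12.3 CPM (1.02 ± 0.17), with 2 rises and 2 falls in all (32.0% called). The other fall, that of Dusp1, was lost under 5 of 9 alternatives, at -0.17 without the libraries of replicate 2. The test of the difference between the viruses called 0 of the 9 genes and 0% of all genes, with 0 members at an unadjusted p under 0.05 and 0 called by DESeq2. Piericidin libraries of Spry1 stood at 11.9 and 8.88 CPM with GFP and 8.44, 10.1 and 8.45 CPM with LbNOX, and were not tested. The oligomycin difference for Spry1 was 0.13 ± 0.26, for Dusp16 -0.32 ± 0.24 and for Dusp8 -0.14 ± 0.27. Of the 12 myotube markers, 2 rose and 6 fell with oligomycin with GFP, and 3 rose and 6 fell with LbNOX. Summed myoblast markers went from 271 to 289 CPM to 230 to 238 CPM with GFP. With LbNOX that sum went from 261 to 273 CPM to 224 to 231 CPM, and the part of the markers was not tested.

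In post-mitotic cells Dusp6 fell with both inhibitors given. Dusp6 went from 54.3, 56.8 and 49.9 CPM to 31.9, 31.8 and 27.7 CPM with piericidin (-0.82 ± 0.08, adjusted p = 0.000432) and 35.4, 34.8 and 38.5 CPM with oligomycin (-0.56 ± 0.08, adjusted p = 0.000450), and both calls held under every alternative run. It was the 1 gene called with piericidin (2.75% of 11827 genes called). With oligomycin Dusp8 rose from 5.97, 8.53 and 5.78 CPM to 12.5, 9.40 and 11.8 CPM (0.74 ± 0.20, adjusted p = 0.0186, and 0.58 and 0.60, not called, without the libraries of replicate 1 or 3) and Spry1 fell from 9.23, 11.3 and 8.55 CPM to 7.04, 7.08 and 5.77 CPM (-0.54 ± 0.17, adjusted p = 0.0424), where 20.7% of all genes were called. The Spry1 call was lost under 7 of 8 alternatives. Of the 12 myotube markers 1 rose and 6 fell with piericidin and 1 rose and 7 fell with oligomycin in these cells, with sums of 13526 to 14013 CPM with DMSO, 13463 to 14231 CPM with piericidin and 13363 to 13436 CPM with oligomycin, and their part was not tested.

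Beside these genes, the list of ERK target genes was counted in myotubes, and no difference between treatments was tested. With oligomycin 3 of 21 target genes rose and 13 fell (33.3% of all genes called), with antimycin 0 rose and 8 fell (12.9%), and with piericidin 0 rose and 9 fell (8.99%). With BAM15 5 rose and 3 fell (25.4%), and under 5% oxygen 7 rose and 0 fell (22.1%). Fosl1, an AP-1 subunit, fell with piericidin (-1.70) and antimycin (-1.67), and Egr3 with oligomycin (-1.64 ± 0.16), while Myc rose with oligomycin (1.74 ± 0.09). Other inhibitors of the pathway had 2 of 14 higher and 9 lower with oligomycin, among the latter Il17rd, an inhibitor of FGF signalling (-0.96 ± 0.30), and Spred2 (-0.73 ± 0.20). In the ERK cascade 2 of 21 rose and 6 fell with oligomycin, and in the JNK and p38 cascades 2 of 18 rose and 4 fell. Of 15 ligands 4 rose and 1 fell, with Fgf21 at 2.61 ± 0.08, and of 13 receptors 1 rose and 3 fell, with the neuregulin receptor gene Erbb2 at -1.69 ± 0.24. Of the 12 myotube markers, 3 rose and 5 fell with oligomycin, 2 rose and 5 fell with piericidin, and 4 rose and 5 fell with antimycin. Their sum was 15226 to 15643 CPM with DMSO and 16750 to 17614 CPM with oligomycin, and their part in the changes above was not tested.

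The genes whose responses over the 25 treated conditions ran closest to those of a member, by Pearson correlation of the log2 change from the own vehicle among 9678 genes, are given as a description. Conditions share vehicles and are few, so no test was made. For Dusp1 these were Inhba (r = 0.962), Phlda1 (0.960) and Dusp3 (0.960), for Dusp8 Epha2 (0.917), Trub2 (0.915) and Eapp (0.908), for Dusp10 Jun (0.920), Zbtb17 (0.914) and Mul1 (0.904), and for Dusp16 Slc23a2 (0.903), Myf5 (0.885) and Tsc22d1 (0.884). Among the ERK phosphatases, Dusp4 ran with Pik3c2a (0.895), Bag5 (0.875) and Klhl40 (0.870), Dusp5 with Adprhl2 (0.819), Ankrd33b (0.818) and Osbpl8 (0.816), and Dusp6 with Errfi1 (0.758), Popdc3 (0.721) and Sema7a (0.711). For the Sproutys they were Heg1 (0.899), Trp63 (0.891) and Vps29 (0.881) with Spry1, Magi3 (0.888) and Sgk3 (0.865) with Spry2, and Gng12 (0.884), Gdnf (0.873) and Epha2 (0.857) with Spry4. Between members the closest pair was Dusp1 and Dusp10 (0.823), and the most opposed was Dusp8 and Spry2 (-0.676). Dusp6, whose closest gene reached 0.758, had the weakest likeness of the 10.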

How the data were processed

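Gene expression was measured by polyA RNA-seq (Smart-seq2 libraries, not strand-specific, paired-end NextSeq reads). The authors converted reads with bcl2fastq 2.20.0.422, pseudo-aligned them with kallisto 0.44 (bias correction) to the Ensembl mouse transcriptome with the transgenes added, summed runs, and deposited gene-level estimated counts from tximport, which are whole numbers in the table. Depth was 6458295 to 15366745 counts per library, so low genes (Spry1 in myoblasts, Dusp5 in myotubes) carry wide counting error. Levels are CPM after TMM scaling over all 96 libraries. Changes were tested with edgeR 4.0.16 (R 4.3.3), quasi-likelihood F test, in 6 fits, one per experiment and one across cell states, after dropping genes for which no condition had 16 or more counts in each of its libraries. The study's own Wald test in DESeq2 1.42.0 was kept as an alternative. P-values were adjusted by Benjamini and Hochberg within each of 42 comparisons over all genes tested, with a threshold of 0.05, and SEs were derived from each log2 fold change and its F statistic. Samples were grouped by their labels. The test was checked on simulated counts. Members, gene lists and motif letters were chosen with earlier results of these data known. Genes of the lists are named where they had the largest called change in each direction and a mean count of at least 50. Some genes that met the rules for naming are not reported here. Alternatives were DESeq2 size factors, no filter, the DESeq2 test, a replicate block, modelling the compared groups alone, well position (outer or inner) and leaving out each replicate. Promoters came from RefSeq and loci from GENCODE.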

Additional observations from a re-analysis of the deposited data

Results flagged for a closer look

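Responses that differed between cell lines or cell states, by a test of the difference itself, are listed here as counts of the genes called. Against control myoblasts, the piericidin response differed for 6 of 9 genes with LbNOX, 7 with mitoLbNOX and 6 with NDI1 (44.3%, 42.8% and 42.7% of all genes), in each case with Dusp1, Dusp8, Dusp10 and Dusp16 lower and Spry2 higher. The calls of Dusp5 with LbNOX and of Dusp4 and Dusp5 with mitoLbNOX were lost under 2 to 4 of 9 alternatives. The antimycin response differed for 7 of 9 with LbNOX and 7 with mitoLbNOX (51.5% and 31.7% of all genes), all lower. The oligomycin response differed for 4 of 9 with LbNOX (7.98% of all genes), and 1 of these 4 calls held under every alternative. Between myotubes and control myoblasts the piericidin response differed for 7 of 10 genes, the antimycin response for all 10 and the oligomycin response for 3 (46.5%, 47.9% and 29.0% of all genes). Spry1 entered these tests only through the differentiated cells and Dusp5 only through the myoblasts, where each is high. The cells compared differ also in transgene, doxycycline, serum and density, which cannot be told apart from the state. The share for oligomycin is near that of all genes, and the antimycin call of Spry1 was lost under 5 of 9 alternatives. The 9 comparisons use the same control myoblasts, so they are not independent of each other.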

How the results depend on the processing

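Of 197 calls of these genes over 42 comparisons, 126 held under every alternative and 71 were lost under at least 1; none changed direction. When the compared groups alone were modelled, called genes went from 3 to 1 for LbNOX against control with DMSO, 2 to 1 for mitoLbNOX, 4 to 2 for NDI1, 2 to 1 for piericidin in LbNOX myoblasts, 6 to 3 for oligomycin there, 4 to 2 for its difference from control, 5 to 3 for piericidin in myotubes and 7 to 4 for BAM15 added to oligomycin. With no filter they went from 6 to 3, 4 to 2 and 7 to 4 for the oligomycin results in LbNOX myoblasts, their difference and BAM15 added to oligomycin, from 4 to 1 under 5% oxygen, and from 0 to 2 for chloramphenicol in control myoblasts. The replicate block and well position each gave 1 for chloramphenicol. Leaving out a replicate gave 0 to 1 (LbNOX), 0 to 1 (mitoLbNOX) and 0 to 2 (NDI1) with DMSO, 0 to 2 and 3 to 4 for piericidin and oligomycin with LbNOX, 1 to 3 for the oligomycin difference, 5 to 9 for antimycin with mitoLbNOX and 0 to 1 for chloramphenicol. In myotubes it gave 2 for piericidin, 2 to 3 for antimycin, 1 to 2 for 5% oxygen, 3 to 5, 2 to 4 and 2 to 5 for BAM15, piericidin and 5% oxygen with oligomycin, and 3 to 4 for oligomycin with GFP; in post-mitotic cells it gave 1 to 2 for oligomycin. The causes were not tested, beyond there being fewer libraries or other genes in those fits.

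Counts over all genes moved more than 1.5 times in these cases. Modelling the compared groups alone gave 171 in place of 321 (LbNOX with DMSO), 92 in place of 212 (mitoLbNOX), 228 in place of 552 (NDI1), 558 in place of 1063 (piericidin with LbNOX), 645 in place of 989 (chloramphenicol, control) and 69 in place of 109 (chloramphenicol, LbNOX). With no filter, mitoLbNOX with DMSO gave 542, piericidin with NDI1 552 in place of 1, chloramphenicol with LbNOX 750 and its difference 483 in place of 62, oligomycin between viruses 197 in place of 0, and piericidin in post-mitotic cells 613 in place of 325. DESeq2's test gave 6, 178 and 167 for piericidin with NDI1, chloramphenicol with LbNOX and its difference. Well position gave 2944 in place of 4549 for myotubes against post-mitotic cells and 2316 in place of 3702 for the oligomycin response between states, and could not be run in post-mitotic cells, all in outer wells. Leaving out a replicate moved 22 comparisons this far, 58 of 60 times to a lower count.

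Replicate numbers did not pair the libraries: deviations from the group means of same-numbered libraries correlated by 0.034 on average in the myoblast fit (-0.23 to 0.33). With the replicate block the chloramphenicol difference gave 22 genes. Depth limits Spry1 in myoblasts, at 0 to 24 counts, and Dusp5 in myotubes.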
